A study of Mus musculus with 18 samples.

Results

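The replication-dependent histone genes are the copies of the linker histone H1 and the core histones H2A, H2B, H3 and H4 that sit in the Hist1 to Hist4 gene clusters. Genes were taken by symbol, as those beginning with Hist1h, Hist2h, Hist3h or Hist4h in the NCBIM37 annotation, with at least 10 counts summed over all 18 libraries. Of 70 such genes among the 37991 counted, 61 met this minimum and are the members described here. They comprise 6 H1, 15 H2A, 16 H2B, 12 H3 and 12 H4 genes, of which 48 lie in Hist1 on chromosome 13, 9 in Hist2 on chromosome 3, 3 in Hist3 on chromosome 11 and 1 in Hist4 on chromosome 6. The annotation lists 59 of them as protein coding and 2 as pseudogenes. The highest total among the 9 genes left out was 8 counts.

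RNA was measured in CD4 T cells enriched by magnetic selection from the spleen of Tg4-H2u mice, a strain in which a transgene supplies a TCR against a peptide of myelin basic protein. There were 6 groups of 3 biological replicates. Naive mice had received repeated subcutaneous PBS and tolerized mice repeated subcutaneous 4Y peptide in an escalating dose, every 3-4 days. N0 and T0 are naive and tolerized cells at rest, with PBS as the last dose, and NAg and TAg are their counterparts taken 2 h after a last dose of the peptide antigen (Ag). NPI and TPI are naive and tolerized cells kept for 2 h in culture with 2 drugs that bypass the TCR, the phorbol ester PMA and the ionophore A23187 for calcium (PI for both). Per the methods, mice of both sexes, 6 to 12 weeks old, were used, and the enriched cells are a population rather than a sorted one. Ribosomal RNA was depleted and poly(A) selection was not part of the preparation, so transcripts without a poly(A) tail could be counted.

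As background, the replication-dependent histone mRNAs are unusual among animal mRNAs, because most have no introns and end in a conserved stem-loop instead of a poly(A) tail. The stem-loop is bound by SLBP, and together with the U7 snRNP it directs the cut that forms the mRNA end. These mRNAs accumulate in S phase, when new DNA is packaged, and are degraded quickly when replication stops. Some copies can also give longer, polyadenylated transcripts that run past the stem-loop, which is known from non-dividing and differentiated cells. Splenic naive T cells are largely quiescent.

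The stem-loop is the sequence that defines the family, and the 8 forms found among the members are each shown by 1 member. A consensus match of 16 bases was found in 55 members within 150 bases after the coding sequence, at 22 to 59 bases after the stop codon (median 31). The capitals mark the stem-loop and the lower-case letters the 5 flanking bases on each side, all from the NCBIM37 genome and written 5′ to 3′ on the gene's own strand.
Hist1h1c: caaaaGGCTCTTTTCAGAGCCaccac
Hist1h3e: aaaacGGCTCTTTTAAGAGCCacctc
Hist1h4d: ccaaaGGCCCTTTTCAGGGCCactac
Hist2h4: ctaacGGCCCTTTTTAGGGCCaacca
Hist1h4b: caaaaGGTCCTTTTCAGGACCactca
Hist1h4a: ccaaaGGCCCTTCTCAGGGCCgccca
Hist1h3g: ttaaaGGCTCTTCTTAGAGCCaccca
Hist2h2ac: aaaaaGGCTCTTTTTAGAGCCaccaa
The form shown for Hist1h1c occurred in 33 members, that of Hist1h3e in 8, that of Hist1h4d in 7, and those of Hist2h4 and Hist1h4b in 2 each, while the other 3 forms were found in 1 member each. On NCBIM37 the stem-loop of Hist1h1c lies at chr13:23831381-23831396 on the plus strand, that of Hist1h4a at chr13:23852669-23852684 on the minus strand and that of Hist2h2ac at chr3:96024341-96024356 on the minus strand. All 3 lie in the single exon of the gene, in its 3′ UTR. In 4 members, Hist2h2bb, Hist2h2be, Hist1h2an and Hist1h2al, these letters were not in the window, and 2 members without an annotated coding sequence (Hist3h2bb-ps and Hist2h3c2) were not searched. The annotated gene model ended within 100 bases of the stem-loop in 36 members and ran more than 100 bases past it in 19, by 839 bases in Hist1h1c, 1235 in Hist2h4 and 1487 in Hist3h2a.

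Many members are near copies of each other, which limits how well reads could be assigned to 1 of them. A median of 37.5% of the 75-base windows of a member's exons also occurred in another of the 70 genes, on either strand. The share was over 50% in 20 members, and 7 members had no shared window. Of the 9 genes below the count minimum, 7 had over 80% of their windows shared. Exons of 7 members overlap another gene, such as Trim17 for 708 bases of Hist3h2a on the same strand. How the counting treated strand, overlaps and reads that map to several places is not given in the sources used here, so the values of these members are uncertain.

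Promoters, taken as the 250 bases before and 50 after the start, were matched for 54 members in RefSeq (GRCm38.p6, not the build of the counts). Motifs were searched on both strands and anywhere in the stretch, before or after the start. The octamer ATTTGCAT, known as the site of Oct-1 in H2B promoters, was present in 11 of 54 members (20.4%) against 1.75% of 27025 promoters. It was found in 6 of 14 H2A and 5 of 13 H2B promoters and in none of the other classes. These promoters are not all separate sequences. On NCBIM37 the H2A gene Hist2h2ac (minus strand, start at 96024803) and the H2B gene Hist2h2be (plus strand, start at 96025044) point away from each other. The stretches before them overlap, so the same octamer may count for both classes. The CCAAT box, searched as CCAAT, was present in 85.2% of members against 37.9% of all promoters, in every H1, H2A, H2B and H3 promoter matched but in 3 of 11 H4 promoters. TATAAA was present in 57.4% against 14.2%. The promoters of Hist2h2ac and Hist1h4a are shown because these genes stood out in the response to Ag, with the 3 motifs in capitals on either strand.
Hist2h2ac: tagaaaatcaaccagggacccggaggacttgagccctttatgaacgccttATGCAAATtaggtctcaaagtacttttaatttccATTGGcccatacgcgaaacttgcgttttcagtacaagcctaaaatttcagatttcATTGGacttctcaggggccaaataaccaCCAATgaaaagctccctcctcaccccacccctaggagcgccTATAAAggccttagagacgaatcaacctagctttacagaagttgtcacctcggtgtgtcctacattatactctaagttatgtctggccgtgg
Hist1h4a: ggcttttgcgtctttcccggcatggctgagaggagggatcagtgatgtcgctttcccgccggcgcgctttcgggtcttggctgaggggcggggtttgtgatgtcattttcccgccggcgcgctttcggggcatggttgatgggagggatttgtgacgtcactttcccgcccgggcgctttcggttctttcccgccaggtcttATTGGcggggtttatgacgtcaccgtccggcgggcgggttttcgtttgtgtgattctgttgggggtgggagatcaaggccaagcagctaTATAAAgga
On GRCm38.p6 they lie at chr3:96220831-96221130 and chr13:23761200-23761499, both on the minus strand. The Hist2h2ac promoter holds all 3 motifs, and that of Hist1h4a holds CCAAT on the other strand. The TATAAA of Hist1h4a is near the 3′ end of the stretch shown, within the 50 bases after the annotated start. A match describes letters only and was not tested as a binding site.

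Over the whole family, the summed level was highest in resting tolerized cells and lowest in naive cells after Ag. Levels are normalized counts, which are counts scaled to a common library size by the TMM method, and the sum runs over all 61 members. In N0 it was 11003, 6416 and 9708 in replicates 1 to 3, and in T0 it was 12460, 10575 and 16788, so that 1 T0 library lay within the range of N0. After Ag it was 4123, 3289 and 4223 in NAg and 6904, 6810 and 10498 in TAg. After PI, the NPI libraries held 7279, 7591 and 7124 and the TPI libraries 7866, 6910 and 8058. The NAg libraries were below every other library, and the NPI and TPI libraries overlapped. The mean fell from 9043 ± 2365 in N0 to 3879 ± 513 in NAg (SD, n = 3 each), and from 13274 ± 3185 in T0 to 8071 ± 2103 in TAg. These are ratios of 0.429 and 0.608, and the mean was 0.811 times N0 in NPI and 0.573 times T0 in TPI. Taken as a share of all counts instead, which does not correct for the changed make-up of the libraries, the ratios were 0.324, 0.487, 0.542 and 0.332. The members together held 0.0815% of all counts in N0, 0.128% in T0, 0.0264% in NAg, 0.0623% in TAg, 0.0442% in NPI and 0.0424% in TPI. In bulk RNA of this kind, fewer cells of a type and less RNA per cell cannot be told apart.

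**Figure D1:**
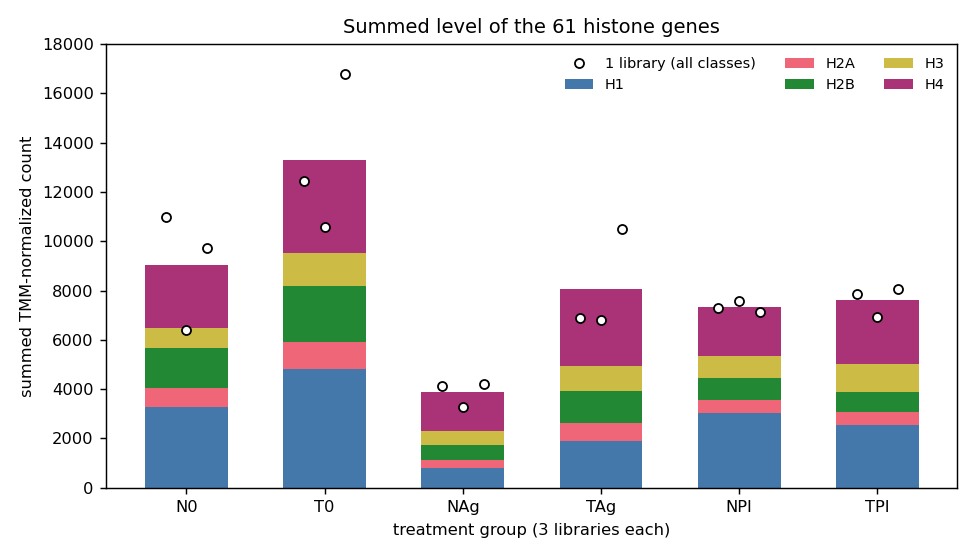
Summed normalized count of the 61 members in each of the 6 groups, stacked by histone class (means of 3 libraries), with 1 open point for the total of each library. The NAg points, between 3289 and 4223, lie below all others, and the 3 T0 points lie between 10575 and 16788.

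A few genes carried most of this level. Hist1h1c, a somatic H1 subtype gene, gave 20.2% of the summed level over all libraries, from 10.9% in NAg to 26.8% in NPI, and the 10 highest members gave 58.8%. Per kilobase of exon, and averaged over all libraries, the order was led by 4 genes: Hist1h4d (1553 normalized counts per kb), Hist1h1c (1063), Hist1h4c (920) and Hist1h1e (697). The H4 genes Hist1h4h, Hist1h4k and Hist1h4f followed at 633, 414 and 405. The annotated exon runs 839 bases past the stem-loop in Hist1h1c but 25 in Hist1h4d. This order therefore depends on where the gene models end. The order differed between groups: in NAg the H4 genes Hist1h4d (987), Hist1h4c (511), Hist1h4h (356) and Hist1h4a (328) were above Hist1h1c (271), and in NPI Hist1h1c (1260) was above Hist1h4d (1202). The 2 lowest members, Hist1h2al with 16 counts and the testis H1 gene Hist1h1t with 11 counts over all libraries, were too low to test.

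**Figure D2:**
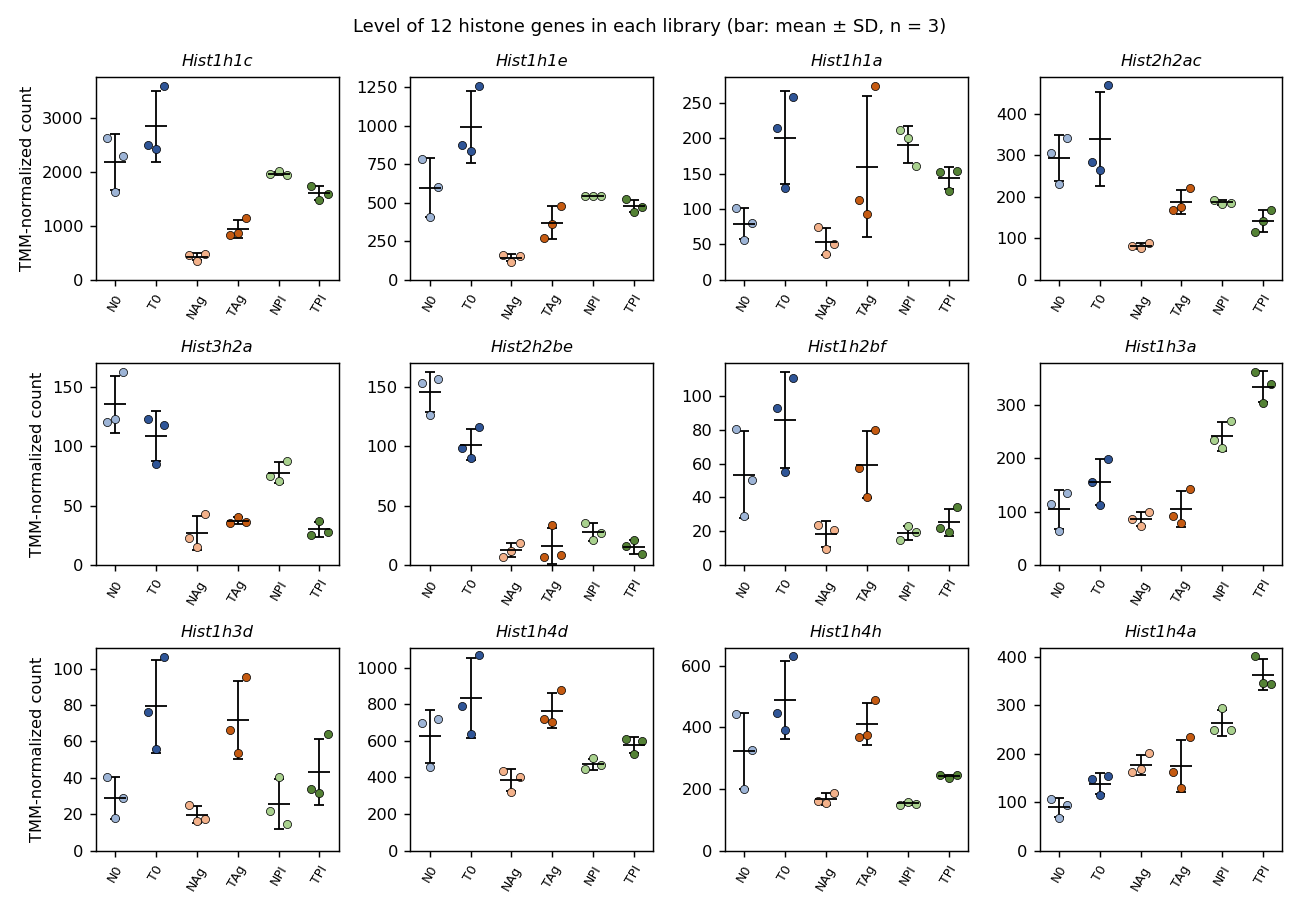
Normalized count of 12 members in each library (points) with the mean ± SD of each group (n = 3), each gene on its own axis from 0. Hist2h2be and Hist1h1c fall after Ag, whereas Hist1h4a is higher in NAg, NPI and TPI than at rest.

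Libraries held 10758571 to 13559974 counts in the N0, T0, NAg and TAg groups and 14895843 to 24119489 after PI. The larger totals after PI did not bring more reads on the members, whose raw counts summed to 6146 to 17504 in N0 and T0 libraries and to 6296 to 11100 in NPI and TPI libraries. Differences were tested for 17240 genes with the edgeR quasi-likelihood test, and a gene was called at a Benjamini-Hochberg adjusted p under 0.05 over all of them. Of the 61 members, 59 passed the filter on low counts. All adjusted p-values of genes below are from this test, and log2 fold changes are given with the standard error (SE) where they are discussed in detail. The T cell markers were high in every library (summed level 21887 or more), but their sum differed between groups. It was 34895 to 35926 in N0, 29152 to 34676 in T0, 21887 to 23251 in NAg and 24808 to 27920 in TAg. After PI it was 55402 to 61770 in NPI and 61642 to 65335 in TPI. Of the 9 markers, 7 were called lower and 2 higher in NAg than N0. Markers of other cells differed between naive and tolerized groups: all 13 neutrophil markers were called higher in T0 than N0, with a summed level of 86.3 to 197 in N0 and 2021 to 3538 in T0. Of the 16 erythroid markers 14 were tested and 5 were called higher in T0, with sums of 134 to 339 in N0 and 471 to 2955 in T0. Of 5 B cell markers 0 were called, but their sum varied between replicates. In replicates 1 to 3 it was 1627.5, 303 and 395 in N0 and 2275, 852 and 480 in T0. The sum of 2 CD8 T cell markers was 210 to 260 in N0 and 81.5 to 126 in T0. Reads on Y-linked genes numbered 8 to 15 in N0 libraries, 4 to 13 in NAg, 7 to 6563 in T0, 10 to 5111 in TAg and 5599 or more in every PI library.

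The first comparison asked how resting tolerized cells differ from resting naive cells. Of the 59 members tested, 22 were called higher in T0, where 8.42% of all tested genes were called higher and 12% lower. No member was called lower by edgeR, with 0 members lower at an unadjusted p under 0.05 (39 were higher) and 0 by DESeq2 (26 were higher). The median log2 fold change was 0.76 over the members and −0.08 over all genes. All 22 called members lie in Hist1, where 46 were tested, and the 9 Hist2 and 3 Hist3 members were not called, with medians of 0.29 and −0.26. By class these were 3 of 5 H1, 6 of 14 H2A, 5 of 16 H2B, 5 of 12 H3 and 3 of 12 H4 genes. A stricter rule also asks for a fold of at least 2 and a mean normalized count above 50 in the higher group, and 13 members were higher by it, against 2.61% of all genes (0.644% lower). The 2 groups did not overlap in 26 members, against 35% of all genes in either direction.

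The largest rises were in an H2A gene, 2 H3 genes and an H1 gene. Hist1h2af, coding for a core H2A, had 29.7, 6.26 and 17.9 normalized counts in N0 and 70.8, 45.9 and 64.3 in T0 (log2 fold change 1.73, SE 0.41, adjusted p = 0.00507). Its 3 T0 libraries were all above the N0 libraries, although 70% of its windows are shared with other members or listed genes. The H3 gene Hist1h3b had 29.7, 6.26 and 14.9 in N0 and 65.5, 34.4 and 55.6 in T0 (1.60, SE 0.39, adjusted p = 0.0063). The linker gene Hist1h1b had 120, 34.5 and 56.5 in N0 and 226, 183 and 229 in T0 (1.59, SE 0.38, adjusted p = 0.00935). N0 replicate 2 was the lowest library for each of these 3 genes, and in each of them all T0 libraries were higher than all N0 libraries. Another H3 gene, Hist1h3d, rose from 29.0 ± 11.4 to 79.4 ± 25.6 (SD, n = 3; 1.44, SE 0.37, adjusted p = 0.00978). The abundant Hist1h1e rose by 0.73 (SE 0.23, adjusted p = 0.043) and Hist1h4a by 0.63 (SE 0.20, adjusted p = 0.027). Hist1h1c, with means of 2181 ± 517 and 2840 ± 652, was not called (0.38, SE 0.19, adjusted p = 0.187), and its groups overlapped.

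This comparison depended on single libraries. Without N0 replicate 2 the count of called members was 6, without T0 replicate 3 it was 9, without T0 replicate 1 it was 11 and without N0 replicate 3 it was 14, but without N0 replicate 1 it was 34. The calls of Hist1h1e and Hist1h4a in this comparison were lost without N0 replicate 2, N0 replicate 3, T0 replicate 1 or T0 replicate 3, and that of Hist1h3d without N0 replicate 2. With erythroid and neutrophil marker scores as covariates no member was called by edgeR (0 higher and 5 lower at an unadjusted p under 0.05, against 26 higher by DESeq2 without the scores), the median log2 fold change of the members turned to −0.98, and 0 higher and 2 lower genes of all 17240 were called. The marker scores separate the tolerized from the naive libraries, so the part of other cells in these differences cannot be told apart from that of tolerance. Y-linked reads numbered 6563, 6320 and 7 in the T0 libraries and 8 to 15 in N0, so the sex of the mice may differ as well.

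After a dose of Ag 2 h before harvest, many histone genes were lower in naive cells, most of all H1 and H2B genes by summed level. Of 59 members, 30 fell and 1 rose in NAg against N0, where 33.4% of all tested genes fell and 32.1% rose. The median was −0.76 for the members and 0.00 for all genes. By the stricter rule 15 members fell, against 16.2% of all genes (14.2% rose). DESeq2 also called 30 lower and 1 higher. The NAg and N0 libraries did not overlap in 29 members, against 68.1% of all genes.

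The H1 genes showed the steepest fall in summed level of any class. The sum of the H1 genes was 0.244 times its N0 level in NAg, against 0.381 for H2B, 0.419 for H2A, 0.621 for H4 and 0.674 for H3. Hist1h1c had 2629, 1616 and 2299 normalized counts in N0 and 455, 347 and 469 in NAg. All NAg libraries were far below all N0 libraries, and the gene fell by 2.36 on the log2 scale (SE 0.21, adjusted p = 1.28e-07). Hist1h1e, another somatic H1 gene, had 787, 405 and 604 in N0 and 159, 115 and 152 in NAg (log2 fold change −2.07, SE 0.27, adjusted p = 8.77e-06). Hist1h1d fell by 1.58 (SE 0.34, adjusted p = 0.000925). The other tested H1 genes did not follow: Hist1h1a had a log2 fold change of −0.56 (adjusted p = 0.289) and Hist1h1b of −0.09 (adjusted p = 0.874).

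Among the core histones, genes of the small Hist2 and Hist3 clusters had the largest falls. In Hist2, 7 of 9 members fell, and in Hist3 all 3 did, with a median of −2.92. In Hist1, 19 of 46 fell and 1 rose, with a median of −0.66. Hist2h2be, an H2B gene at chr3:96025044-96027661 on NCBIM37, had 154, 126 and 157 normalized counts in N0 and 7.19, 11.7 and 18.7 in NAg. The groups were far apart, with a log2 fold change of −3.51 (SE 0.40, adjusted p = 1.84e-07), the largest fall among the members. Hist2h2be has no stem-loop match in the window searched and no window shared with another gene. The Hist3 genes Hist3h2ba (−2.92, SE 0.34, adjusted p = 3.92e-08), Hist3h2bb-ps (−3.05, SE 0.40, adjusted p = 3.16e-07) and Hist3h2a (−2.31, SE 0.26, adjusted p = 1.64e-08) are 2 H2B genes and an H2A gene. Reads of Hist3h2a may in part come from Trim17, whose exons overlap it.

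Hist1h4a, an H4 gene at chr13:23852561-23853099, was the only member to rise after Ag in naive cells. It had 107, 66.8 and 93.2 normalized counts in N0 and 162, 168 and 201 in NAg, with no overlap (0.99, SE 0.20, adjusted p = 0.000143). Its stem-loop, shown above, is the only one of its form among the members. The neighbouring H3 gene Hist1h3a had 104 ± 36.0 in N0 and 86.0 ± 13.1 in NAg (SD, n = 3) and was not called (−0.28, adjusted p = 0.383). The other H4 genes went lower, 9 of 12 in all: Hist1h4d fell by 0.69 (SE 0.20, adjusted p = 0.00615), Hist1h4h by 0.95 (SE 0.24, adjusted p = 0.00298) and Hist2h4 by 1.41 (SE 0.22, adjusted p = 1.81e-05). Hist1h4c fell by 0.72 (adjusted p = 0.0271), a call lost without N0 replicate 1, N0 replicate 3, NAg replicate 1 or NAg replicate 2. Only 3 of 12 H3 genes fell, with a median of −0.43, and Hist1h3e, the highest of them, fell by 0.78 (adjusted p = 0.0209), lost without NAg replicate 2.

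In tolerized cells Ag had the same direction on most members, with fewer calls. Of 59 members, 19 fell in TAg against T0, where 29.8% of all genes fell and 29.9% rose. No member was called higher by edgeR, with 0 at an unadjusted p under 0.05 and 0 by DESeq2. The median was −0.51 for the members and −0.05 for all genes, and 6 members fell by the stricter rule, against 11.3% of all genes (12.1% rose). Without TAg replicate 3, the highest TAg library in summed level, 37 members fell. The groups did not overlap in 16 members, against 64.5% of all genes. By cluster, 8 of 9 Hist2 and 3 of 3 Hist3 members fell but 7 of 46 in Hist1. Y-linked reads numbered 6563, 6320 and 7 in T0 and 10, 18 and 5111 in TAg, so the sex of the mice may differ.

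The largest falls were again in Hist2h2be, Hist3h2ba, Hist3h2bb-ps and Hist1h1c. Hist2h2be had 98.2, 90.1 and 116 normalized counts in T0 and 6.61, 33.4 and 8.20 in TAg (−2.69, SE 0.39, adjusted p = 5.62e-06). Hist1h1c had 2500, 2428 and 3592 in T0 and 819, 855 and 1136 in TAg (−1.60, SE 0.20, adjusted p = 5.91e-06). In both genes every TAg library lay below every T0 library. Hist1h1e fell by 1.41 (SE 0.24, adjusted p = 0.00015), and Hist3h2ba by 2.44 (SE 0.33, adjusted p = 6.01e-07). Hist1h2be, an H2B gene that fell by 0.58 (adjusted p = 0.0207), was lost without T0 replicate 3, TAg replicate 1 or TAg replicate 2. Of the H4 genes 2 of 12 fell, one of them Hist2h4 (−0.69, adjusted p = 0.00697). Hist1h4a had 147, 114 and 154 in T0 and 162, 129 and 235 in TAg, which overlapped (0.35, adjusted p = 0.118).

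**Figure D3:**
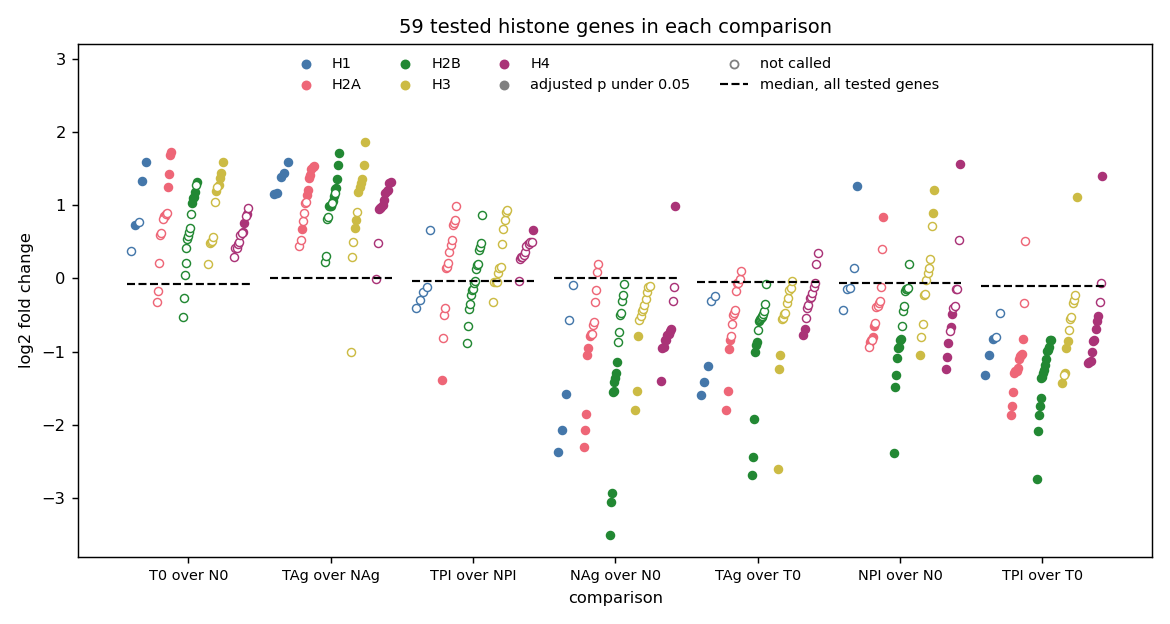
Log2 fold changes of the 59 tested members in 7 comparisons, arranged by histone class, with filled points for members called at an adjusted p under 0.05, open points for the others and a dashed line at the median of all tested genes. In TAg over NAg 41 points are filled above 0, and in TPI over T0 44 are filled below 0.

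Whether the response to Ag differed between both cell states was tested as a difference of the 2 responses. Of 59 members, 1 was called, where 14.6% of all genes were called in the same direction and 7.09% in the other. That member was Hist2h2ac, an H2A gene that fell by 1.85 in naive and by 0.85 in tolerized cells (difference 0.998, SE 0.29, adjusted p = 0.0193). It had 306, 232 and 342 normalized counts in N0, 80.3, 75.2 and 89.1 in NAg, 283, 264 and 469 in T0 and 167, 175 and 220 in TAg. The resting groups overlapped and the Ag groups did not. The call was lost without NAg replicate 1, NAg replicate 2 or TAg replicate 3. The median difference was 0.28 for the members and 0.05 for all genes, with 43 of 59 estimates above 0. Hist2h2ac did not reach the fold of the stricter rule, which 3.05% of all genes passed in its direction and 2.23% in the other. No member was called in the other direction by edgeR, with 1 at an unadjusted p under 0.05 and 0 by DESeq2, and in the called direction there were 5 at an unadjusted p under 0.05 and 3 by DESeq2. The count was 6 without N0 replicate 2, 8 without T0 replicate 3, 2 without NAg replicate 3, and 0 without NAg replicate 1 or replicate 2 (1 with all libraries). With the erythroid and neutrophil scores as covariates 12 members were called, all in the direction of Hist2h2ac, and the median was 0.72. In that fit 2022 of all 17240 genes were called in this direction and 1076 in the other. Y-linked reads were at most 15 in N0 and 13 in NAg but reached 6563 in T0 and 5111 in TAg. The sex of the mice may thus differ here too. For Hist1h1c the difference was 0.77 (SE 0.28, adjusted p = 0.0718).

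After Ag, most histone genes were higher in tolerized than in naive cells. Of 59 members, 41 were called higher in TAg than in NAg, where 20.9% of all genes were called higher and 18.5% lower. No member was called lower by edgeR, with 0 at an unadjusted p under 0.05 and 0 by DESeq2, which called 39 higher. The median was 1.13 for the members and 0.01 for all genes, and 26 members passed the stricter rule against 3.61% of all genes (2.05% lower). Non-overlap between the groups held for 42 members, against 47.7% of all genes. All 5 tested H1 genes were higher, as were 8 of 14 H2A, 10 of 16 H2B, 8 of 12 H3 and 10 of 12 H4 genes. By cluster these were 37 of 46 members in Hist1 and 4 of 9 in Hist2.

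The H3 gene Hist1h3d had 25.2, 16.4 and 17.6 normalized counts in NAg and 66.1, 53.7 and 95.3 in TAg (1.86, SE 0.40, adjusted p = 0.00115). The H2B gene Hist1h2bf had 24.0, 9.40 and 20.9 in NAg and 57.2, 40.5 and 79.9 in TAg (1.71, SE 0.41, adjusted p = 0.00249). For the linker gene Hist1h1a the values were 74.3, 36.4 and 50.6 against 112, 93.0 and 275 (1.58, SE 0.43, adjusted p = 0.00919), or 0.94 without TAg replicate 3, its highest library. In these 3 genes all TAg libraries exceeded all NAg libraries. At higher levels, Hist1h1c was 1.15 higher (SE 0.21, adjusted p = 0.000623), Hist1h1e 1.39 (SE 0.27, adjusted p = 0.00119), Hist1h4h 1.30 (SE 0.24, adjusted p = 0.000619) and Hist1h4d 0.98 (SE 0.20, adjusted p = 0.00103). Hist1h1d was 1.16 higher (adjusted p = 0.0165), lost without NAg replicate 2, NAg replicate 3 or TAg replicate 3, and Hist1h3e 0.79 higher (adjusted p = 0.0326), lost without NAg replicate 1, NAg replicate 2 or TAg replicate 3. Hist1h4a was level, with means of 177 ± 21.2 in NAg and 175 ± 54.2 in TAg (SD, n = 3; −0.01, SE 0.19, adjusted p = 0.976). Hist2h2be and Hist3h2a were low in both groups and not called (0.30, adjusted p = 0.684, and 0.45, adjusted p = 0.231).

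Without TAg replicate 3 the count of members called higher in TAg was 27. The 13 neutrophil markers were all called higher in TAg too, with sums of 156 to 429 in NAg and 2489 to 4537 in TAg. Of 10 macrophage markers 8 were lower and 1 higher in TAg, with a median of −2.18, but their summed level was 597 to 2211 in NAg and 978 to 1436 in TAg. With the erythroid and neutrophil scores as covariates 0 members were called by edgeR (0 higher and 2 lower at an unadjusted p under 0.05, against 39 higher by DESeq2 without them), the member median was −0.19, and 82 higher and 150 lower genes of all 17240 were called. The part of these other cells in the difference cannot be told apart from that of the cell state in this design. Y-linked reads numbered 10, 18 and 5111 in TAg replicates 1 to 3 and 4 to 13 in NAg. The sex of the mice may therefore differ as well.

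PI in culture gave a mixed picture in naive cells. Of 59 members, 18 fell and 5 rose in NPI against N0, where 32.7% of all genes fell and 28.6% rose. The median was −0.38 for the members and −0.06 for all genes, and 23 members did not overlap between the groups, against 66.4% of all genes. By the stricter rule 6 fell and 3 rose, against 10.3% and 10.1% of all genes. The H2B genes were lowest, with 8 of 16 called lower and a summed level of 0.531 times that of N0, against 0.928 for H1 and 1.16 for H3. Culture, and reads on Y-linked genes, set both PI groups apart from N0 and NAg, so that PI, culture and the sex of the mice cannot be told apart here. Of 13 neutrophil markers 7 fell and 2 rose in NPI (median −3.08), with sums of 86.3 to 197 in N0 and 71.8 to 191 in NPI, and of 10 macrophage markers 6 fell and 1 rose (median −1.63), with sums of 549 to 784 and 339 to 490. With the erythroid and neutrophil scores as covariates 10 members rose and 2 fell, and the member median was 0.26. In that fit 3935 of all 17240 genes rose and 4313 fell.

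Hist1h4a rose most, to 249, 295 and 248 normalized counts in NPI from 107, 66.8 and 93.2 in N0 (1.56, SE 0.19, adjusted p = 3.96e-07). Its neighbour Hist1h3a rose to 234, 219 and 271 from 114, 64.7 and 135 (1.21, SE 0.25, adjusted p = 0.000489). Neither gene had overlapping groups. The linker gene Hist1h1a rose to 211, 200 and 161 from 101, 56.4 and 80.3 (1.26, SE 0.39, adjusted p = 0.0132), a call lost without N0 replicate 2. The H3 gene Hist1h3i rose by 0.89 (adjusted p = 0.0173), with overlap, and this call was lost without N0 replicate 2, N0 replicate 3 or NPI replicate 2 and was 1.39 without N0 replicate 1. Hist1h1c, which fell steeply after Ag, was nearly level after PI, at 1951, 2005 and 1941 against 2629, 1616 and 2299 (−0.15, SE 0.19, adjusted p = 0.517), and so was Hist1h1e (−0.14, SE 0.24, adjusted p = 0.64).

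The largest falls after PI were in 3 H2B genes and an H4 gene. Hist2h2be had 35.4, 20.9 and 27.2 normalized counts in NPI, all below its N0 libraries (−2.38, SE 0.35, adjusted p = 7.17e-06). Hist1h2bf fell by 1.48 (SE 0.40, adjusted p = 0.00311), Hist1h2bc by 1.32 (SE 0.31, adjusted p = 0.00145) and Hist2h4 by 1.23 (SE 0.21, adjusted p = 7.26e-05). Each of these 4 genes also fell after Ag in naive cells, by 3.51, 1.56, 1.30 and 1.41. Both comparisons share the N0 libraries.

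In tolerized cells most of the family was lower after PI. Of 59 members, 44 fell and 2 rose in TPI against T0, where 36.3% of all genes fell and 32% rose. The median was −1.03 for the members and −0.10 for all genes, and 21 members fell and 2 rose by the stricter rule, against 13.7% and 13.3% of all genes. All 16 H2B genes fell, as did 12 of 14 H2A, 9 of 12 H4, 4 of 12 H3 and 3 of 5 H1 genes. The groups did not overlap in 46 members, against 72.5% of all genes. Without T0 replicate 3, the library with the highest summed level, 30 members were called.

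Hist1h2bc, an H2B gene, had 195, 148 and 266 normalized counts in T0 and 38.8, 39.5 and 63.2 in TPI (−2.08, SE 0.31, adjusted p = 1.2e-05). Hist2h2be fell to 16.2, 20.9 and 9.44 from 98.2, 90.1 and 116 (−2.75, SE 0.38, adjusted p = 2.52e-06). Hist3h2a fell to 25.0, 37.3 and 27.6 from 123, 84.8 and 118 (−1.87, SE 0.24, adjusted p = 2.93e-07). The TPI libraries of these 3 genes were all below the T0 libraries. Hist2h2bb, an H2B gene without a stem-loop match, fell by 1.86 (SE 0.22, adjusted p = 1.68e-06), and Hist1h1c fell by 0.83 (SE 0.19, adjusted p = 0.00155). Hist1h4d fell by 0.52 (adjusted p = 0.0229), lost without T0 replicate 3, where it was −0.33, or without TPI replicate 2. The rises were those of Hist1h4a, to 401, 346 and 343 from 147, 114 and 154 (1.39, SE 0.18, adjusted p = 6.03e-07), and Hist1h3a, to 362, 303 and 338 from 156, 113 and 199 (1.11, SE 0.24, adjusted p = 0.000551). Both had no overlap, as in naive cells.

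The neutrophil markers moved with this comparison as well: 10 of 13 fell in TPI against T0, from sums of 2021 to 3538 in T0 to sums of 457 to 772, and 5 of 14 tested erythroid markers fell. With their scores as covariates 1 member rose, 0 fell by edgeR (0 at an unadjusted p under 0.05, against 41 lower by DESeq2 without them), and the member median was 0.41. In that fit 2637 of all 17240 genes rose and 2126 fell. TPI cells were also kept in culture, unlike T0 cells. Y-linked reads numbered 6563, 6320 and 7 in the T0 libraries and 7872 or more in TPI, so the sex of the mice may differ as well. The fall of these markers, culture and the response to PI cannot be told apart here.

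Few members were called between the cell states after PI. Of 59 members, 2 were called higher and 1 lower in TPI than in NPI, where 18.2% of all genes were higher and 19.7% lower. The median was 0.19 for the members and −0.04 for all genes, and 19 members had no overlap, against 50.5% of all genes. At an unadjusted p under 0.05 there were 7 higher and 1 lower, and DESeq2 called 4 higher and 1 lower. By the stricter rule 1 was lower, against 2.22% of all genes (3.38% higher). With only the 2 groups compared in the fit, 20 members were called, where 3650 of 16048 genes were called higher and 3481 lower. With the erythroid and neutrophil scores as covariates 4 members were called, all lower, and the median turned to −0.94. In that fit 926 of all 17240 genes were called higher and 613 lower. Hist3h2a was lower, at 74.9, 70.4 and 87.4 normalized counts in NPI and 25.0, 37.3 and 27.6 in TPI (−1.39, SE 0.25, adjusted p = 9.1e-05). The H4 genes Hist1h4h (148, 158 and 153 in NPI, 244, 237 and 245 in TPI) and Hist1h4a (249, 295 and 248 in NPI, 401, 346 and 343 in TPI) were higher by 0.66 (SE 0.24, adjusted p = 0.0443) and 0.46 (SE 0.17, adjusted p = 0.0382). In all 3 genes the groups did not overlap, but the call of Hist1h4h was lost without any 1 of the 6 libraries and that of Hist1h4a without any but NPI replicate 2. The count of members called was 1 without NPI replicate 3, TPI replicate 1 or TPI replicate 3 and 5 without NPI replicate 2 (3 with all libraries).

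The response to PI differed between the cell states in 3 of 59 members, each with a lower change in tolerized cells, where 7.52% of all genes were called in this direction and 12.7% in the other. No member was called in the other direction by edgeR, with 0 at an unadjusted p under 0.05 and 0 by DESeq2, and in the called direction there were 10 at an unadjusted p under 0.05 and 6 by DESeq2. The same 3 members passed the stricter rule, against 1.47% of all genes (1.75% in the other direction). Hist1h1a rose by 1.26 in naive cells and had a log2 fold change of −0.47 in tolerized cells (adjusted p = 0.271), a difference of −1.73 (SE 0.54, adjusted p = 0.0374). Hist3h2a differed by −1.08 (SE 0.33, adjusted p = 0.0222), and the H2B gene Hist1h2bh by −1.19 (SE 0.40, adjusted p = 0.0363). Hist1h2bh had 46.6, 31.3 and 41.6 normalized counts in N0, 49.9, 48.4 and 39.9 in NPI, 82.3, 70.7 and 92.1 in T0 and 33.9, 35.1 and 53.0 in TPI. Over the family 57 of 59 estimates were below 0, with a median of −0.60 against −0.04 for all genes. With the erythroid and neutrophil scores as covariates 0 members were called by edgeR (1 above 0 at an unadjusted p under 0.05, against 6 by DESeq2 without them), and the median turned to 0.15. In that fit 958 of all 17240 genes were called above 0 and 314 below 0. Y-linked reads numbered 8 to 15 in N0 and 5599 to 7835 in NPI. In tolerized cells they numbered 6563, 6320 and 7 in T0 and 7872 to 11652 in TPI. The sex of the mice therefore cannot be told apart from the PI response in this difference. None of the 3 calls was robust to leaving out a library: that of Hist1h1a was lost without N0 replicate 2 or 3, T0 replicate 1 or 3, NPI replicate 1 or 2 or any TPI replicate. That of Hist1h2bh was lost without N0 replicate 2 or 3, T0 replicate 1 or 3, NPI replicate 1 or 2 or TPI replicate 1 or 2, and that of Hist3h2a without N0 replicate 2, T0 replicate 1, NPI replicate 3 or TPI replicate 1 or 3. The count was 7 without N0 replicate 1 and 5 without T0 replicate 2. It was 0 without N0 replicate 2, T0 replicate 1 or TPI replicate 1. It was 1 without N0 replicate 3, T0 replicate 3, NPI replicate 1 or 2, or TPI replicate 2 or 3.

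The members were also described by whether the annotated gene model runs more than 100 bases past the stem-loop. Of the tested members, 36 have models that end within 100 bases of it and 18 have longer models. Some of the 36 models, such as those of Hist1h2af and Hist1h1b, end before the stem-loop is complete. A set of 5 has no stem-loop on record, of which 3 were searched without a match and 2 have no annotated coding sequence and were not searched. In T0 against N0, 19 of the 36 and 3 of the 18 were called higher, and the 3 sets had medians of 0.88, 0.53 and 0.42. After Ag in naive cells, 14 of the 36, 13 of the 18 and 3 of the 5 fell, with medians of −0.58, −1.17 and −1.54. After Ag in tolerized cells, 5, 10 and 4 fell, with medians of −0.38, −0.65 and −1.93. Of all tested genes 33.4% fell in NAg:N0 and 29.8% in TAg:T0, and 8.42% rose in T0:N0. The members with longer models, and those with no stem-loop on record, had the lower medians in both responses to Ag. In NPI against N0 the medians were −0.23, −0.73 and −0.94, and in TPI against T0 they were −0.89, −1.16 and −1.63. The counts do not separate reads before and past the stem-loop, so which part of a long model moved is unknown.

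**Figure D4:**
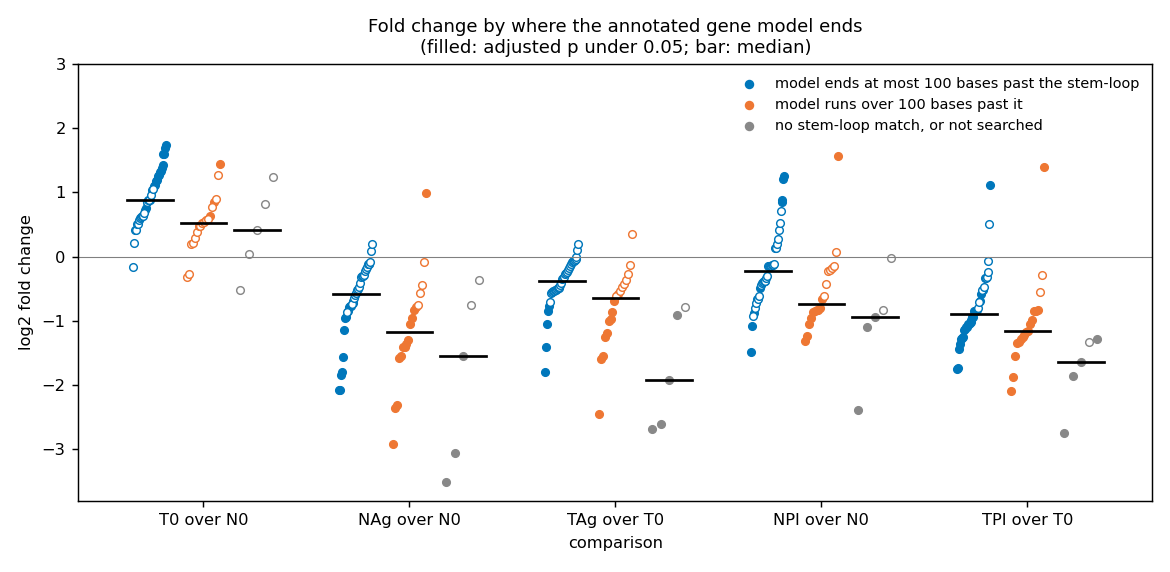
Log2 fold change of each tested member in 5 comparisons, split by whether its gene model ends within 100 bases of the stem-loop (36 members), runs further (18) or has no stem-loop on record (5, of which 2 were not searched), with a bar at each median. After Ag in naive cells the bars stand at −0.58, −1.17 and −1.54.

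Of 18 factors that make or process histone mRNA, 10 rose and 5 fell in NAg against N0 (32.1% and 33.4% of all genes) and 11 rose and 2 fell in TAg against T0 (29.9% and 29.8%). Npat, the coactivator of histone gene transcription, rose by 0.76 in naive and 0.68 in tolerized cells after Ag. Upf1, which acts in the decay of these mRNAs, rose by 0.99 and 0.98, and Cpsf2, a subunit of the cleavage complex, by 1.14 and 1.17. Cpsf3, of the same complex, went the other way, with −0.87 in naive cells (adjusted p = 3.18e-10) and −0.18 in tolerized cells (adjusted p = 0.0447). Lsm10, a protein of the U7 snRNP, fell by 1.15 and 0.77. Lsm11, another protein of the U7 snRNP, differed in direction. It had −0.51 in naive cells (adjusted p = 0.000548) and 0.41 in tolerized cells (adjusted p = 0.00451). After PI, 6 rose and 7 fell in naive cells (28.6% and 32.7% of all genes) and 9 rose and 4 fell in tolerized cells (32% and 36.3%). Slbp, the stem-loop binding protein, had 503, 449 and 433 normalized counts in N0, 550, 556 and 635 in T0, 1497, 1449 and 1409 in NPI and 1198, 1162 and 1048 in TPI. It rose after PI in both states (1.65, SE 0.08, adjusted p = 1.61e-14, and 0.97, SE 0.08, adjusted p = 1.11e-10), and was 0.33 higher in T0 than N0 (adjusted p = 0.00612). Its PI libraries did not overlap with those at rest. After Ag, Slbp changed by 0.26 in naive cells (adjusted p = 0.00955) and by −0.13 in tolerized cells (adjusted p = 0.177). In T0 against N0, 1 factor rose and 4 fell (8.42% and 12% of all genes), among them Pou2f1, which codes for the octamer factor Oct-1 (−0.59).

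Replacement histone genes are known to be expressed outside S phase. Of 11 listed 10 were tested, and in NAg against N0 4 rose and 3 fell, where 32.1% of all genes rose and 33.4% fell. H3f3b, coding for H3.3, rose by 0.53 after Ag in naive cells (adjusted p = 4.09e-05) and by 1.34 after PI (adjusted p = 3.14e-11). H2afz, coding for H2A.Z, rose by 1.14 and 0.83 after PI in naive and tolerized cells. Cenpa, the centromeric H3, fell after Ag from 366 ± 37.5 in N0 to 56.4 ± 13.0 in NAg (SD, n = 3; −2.70, SE 0.17, adjusted p = 2.45e-12), and H2afv fell by 2.51. H1f0, the linker histone of non-dividing cells, was 1.03 higher in T0 than N0 (adjusted p = 0.00564) and fell by 1.98 after Ag in naive cells (adjusted p = 1.33e-05). In both it had the direction of most H1 members called.

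Of 16 histone chaperones, 10 rose and 3 fell in NAg against N0 (32.1% and 33.4% of all genes) and 11 rose and 3 fell in TAg against T0 (29.9% and 29.8%). Nap1l1, a chaperone of H2A and H2B, rose by 1.999 and 1.80. Among 29 genes of S phase and mitosis, 13 were called higher in T0 than N0 (8.42% of all genes), with a median of 0.44. After Ag in naive cells 12 of these rose and 5 fell (32.1% and 33.4% of all genes). Pcna, the sliding clamp of DNA replication, had 1513, 1465 and 1790 normalized counts in N0 and 3443, 3576 and 4124 in NAg (1.22), with no overlap. In TPI against T0, 6 rose and 14 fell (32% and 36.3% of all genes). Mki67, a marker of cycling cells named here after its values were seen, was 1.59 higher in T0 than N0, the largest change among the 29. In this comparison 7 of the 29 estimates were below 0, among them that of Pcna (−0.17, adjusted p = 0.267).

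**Figure D5:**
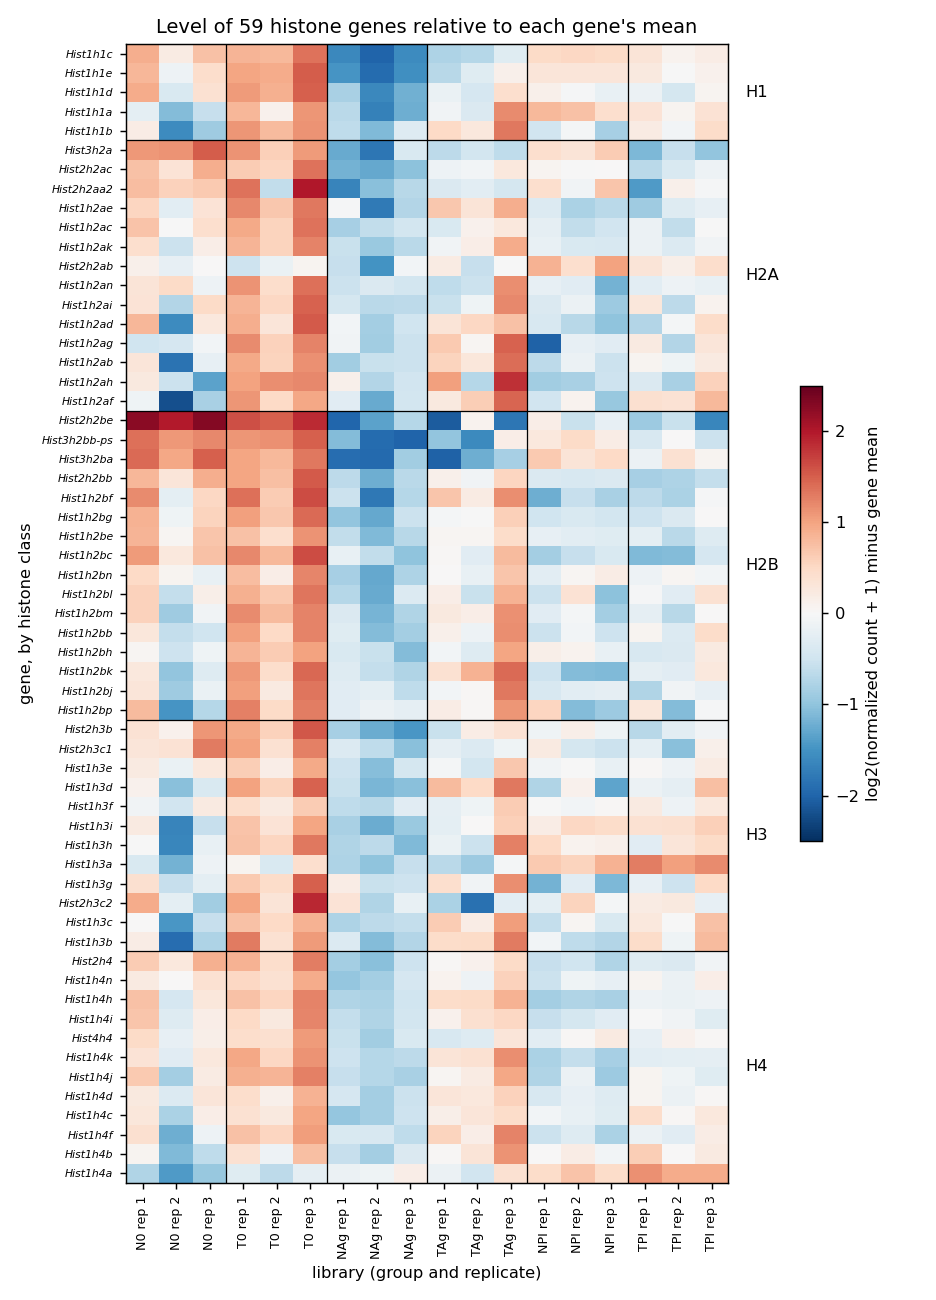
Normalized count of the 59 tested members in each of the 18 libraries, as log2(normalized count + 1) minus the mean of the gene, ordered by class and by the difference of NAg from N0. Most rows are highest in the T0 libraries, and the row of Hist1h4a is highest in TPI.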

How the data were processed

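Splenic CD4 T cells of Tg4-H2u mice were profiled by RNA-seq in 6 groups of 3 replicates. Total RNA was extracted with the PicoPure kit, depleted of rRNA and made into libraries with NEBNext Ultra II. The authors aligned paired-end reads to mm9 (NCBIM37) with TopHat 2.1.1, counted them per Ensembl gene with HTSeq 0.9.1, and deposited raw counts for 37991 genes, without normalization. Strand and multi-mapping settings are not given in the sources used here.

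Counts were analysed with R 4.3.3 and edgeR 4.0.16. After TMM scaling, genes were kept where the mean of any group reached 3 normalized counts (17240 genes). All libraries entered 1 model with the 6 group means, and each contrast was given edgeR's robust quasi-likelihood F test with Benjamini-Hochberg adjustment over all tested genes. A call is an adjusted p under 0.05. The stricter rule adds a fold of at least 2 and a mean normalized count above 50 in the higher group. Alternatives used DESeq2 1.42.0, its size factors in edgeR, no filter, only the groups compared, a replicate block, marker scores as covariates, and each library left out in turn. The scripts were tested on simulated data. Total counts ran from 10758571 to 24119489, and low counts limit the precision of low members.

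The members, gene lists and comparisons were chosen with earlier results of these data known. Members are named if among the 12 highest in mean normalized count, among the 4 largest called rises or falls of a comparison with a mean of at least 20 in the higher group, or called in a difference of responses. Of lists beside them, any tested histone mRNA factor or replacement histone and up to 4 highest chaperone and S-phase genes may be named. A few members outside this rule are named for a sequence feature or as a neighbour.

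Gene models, stem-loops and shared 75-base windows were read from NCBIM37, and promoters from RefSeq on GRCm38.p6. Samples of the same replicate number did not deviate together (of 45 pairs, 2 had a correlation over 0.1, range −0.195 to 0.11), so the numbers were not treated as pairs. The labels do not say how many mice each library holds. Some genes are not reported here.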

Additional observations from a re-analysis of the deposited data

Results flagged for a closer look

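In 4 members the response differed between naive and tolerized cells by the test of the difference itself. For Ag this was 1 of 59 members, where 14.6% of all genes were called in that direction and 7.09% in the other. For PI it was 3 of 59, where 7.52% of all genes were called in that direction and 12.7% in the other. After Ag, Hist2h2ac fell less in tolerized than in naive cells, by a difference of 0.998 on the log2 scale. After PI, Hist1h1a differed by −1.734, as it rose in naive cells and not in tolerized cells. Hist1h2bh differed by −1.189, with a fall that passed the test in tolerized cells and a log2 fold change of 0.20 in naive cells, and Hist3h2a differed by −1.075, with a fall in both. Each of these calls was lost when certain single libraries were left out. By Y-linked reads the sex of the mice may also differ between the groups compared, and its part cannot be told apart.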

How the results depend on the processing

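The counts of called members are given in the order T0:N0, NAg:N0, TAg:T0, TAg:NAg, NPI:N0, TPI:T0, TPI:NPI, difference in Ag response and difference in PI response, and were 22, 31, 19, 41, 23, 46, 3, 1 and 3. With a fold of at least 2 and a mean above 50 they were 13, 15, 6, 26, 9, 23, 1, 0 and 3, and with both tests and a DESeq2 fold of at least 2 they were 15, 19, 10, 30, 9, 27, 1, 0 and 3. DESeq2 alone gave 26, 31, 19, 39, 21, 43, 5, 3 and 6. The replicate block, for numbers that did not pair the samples, gave 33, 32, 23, 42, 24, 48, 8, 6 and 8. With only the groups compared, TPI:NPI had 20 and the difference in PI response 5. Of all genes, 3650 were higher and 3481 lower of 16048 in the first, and 1880 higher and 2070 lower of 16978 in the second. With erythroid and neutrophil scores as covariates the counts were 0, 40, 22, 0, 12, 1, 4, 12 and 0. Over single libraries left out they ran from 6 to 34, 26 to 40, 16 to 37, 27 to 44, 19 to 28, 30 to 47, 1 to 5, 0 to 8 and 0 to 7. By share of all counts the summed level was 0.324 times N0 in NAg, 0.542 in NPI, and 0.332 times T0 in TPI. DESeq2, its size factors and the replicate block kept the direction and the call of all 79 named log2 fold changes. Without the filter on low counts 75 kept both and 4 lost the call. With only the groups compared 74 kept both and 5 lost the call. With the covariates 34 kept both, 27 lost the call and 18 turned direction. The 18 were in T0:N0 Hist1h1b (−1.12), Hist1h1e (−0.78), Hist1h2af (−1.30), Hist1h3d (−1.79) and Hist1h4a (−0.23), in TAg:NAg Hist1h1d (−0.17), Hist1h2bf (−1.37), Hist1h3d (−0.63), Hist1h3e (−0.38), Hist1h4h (−0.14) and Hist2h2bb (−0.20), in TPI:NPI Hist1h4a (−0.091) and Hist1h4h (−0.31), and in TPI:T0 Hist1h1c (0.15), Hist1h1d (0.042), Hist1h1e (0.17), Hist1h4d (0.41) and Hist1h4h (0.47). The cause was not tested. Of 498 fits of named genes with a library left out, 65 lost the call and 433 kept it.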

Other observations

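Outside the family, the 3 genes whose levels followed the summed histone level most closely over the 18 libraries were Cdkn2c, H1f0 and Cd300lb, with Spearman rho of 0.915, 0.886 and 0.884 among 13280 genes compared. These are descriptions over libraries that share groups, depth and the marker differences given above. Cdkn2c, a CDK inhibitor gene, had means of 57.1 normalized counts in N0, 68.1 in T0, 17.6 in NAg, 40.4 in TAg, 43.7 in NPI and 53.8 in TPI. Its lowest mean was in NAg and its highest in T0, as for the histone sum.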
